A study of Homo sapiens with 4 samples.

Results

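The genes described here encode the cytoplasmic actins and small proteins that bind actin or serve myosin as light chains. They are ACTB, ACTG1, TMSB10, TMSB4X, PFN1, CFL1, MYL6, MYL12A, MYL12B and TAGLN2. They were taken by gene symbol from the deposited gene list, which gave 10 genes of 36601. All 10 passed the floor used here, a mean of at least 10 counts per 1000000 UMIs (CPM) over the 4 libraries, which left 8507 genes. The choice sets the abundant actin genes beside short genes such as TMSB10.

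Actin monomers assemble into filaments that shape the cell cortex, and the pool of free monomers is held by small binding proteins. The beta-thymosins encoded by TMSB10 and TMSB4X sequester monomers, profilin (PFN1) returns them to growing filament ends, and cofilin (CFL1) severs and disassembles filaments. Myosin II moves on these filaments with an essential light chain (MYL6) and regulatory light chains (MYL12A, MYL12B), and transgelin-2 (TAGLN2) is a calponin-family protein that binds filaments.

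The study measured BEAS-2B, immortalized cells derived from normal human bronchial epithelium, by droplet single-cell RNA sequencing from the 3′ end of transcripts. The 4 groups were unirradiated control cells and cells given 10 mGy, 100 mGy or 1 Gy of Cs-137 gamma rays at 100 mGy per min and then cultured for 30 min. Each dose had 1 library, so dose and library cannot be told apart and no test between doses was made. Every molecule was counted once by its unique molecular identifier (UMI), and intervals are exact 95% intervals that cover counting error only. The libraries held 211752280 to 285806026 UMIs in 11111 to 21514 barcodes. Control barcodes had a median of 19771 UMIs, against 13757, 12417 and 14277 at 10 mGy, 100 mGy and 1 Gy. Barcodes with a UMI count below the library median divided by 3, called low-UMI barcodes here, were 41.4% of the 10 mGy library, 27.4% of the 100 mGy library and 25.4% of the 1 Gy library, against 19.6% for the control. Pairs of libraries shared 76 to 134 barcode sequences, at most 0.864% of the smaller library. Of 8 epithelial markers, KRT7, KRT8 and KRT18 passed the floor, while CDH1, KRT5 and KRT14 had 2 to 14 UMIs per library and EPCAM 0.902 to 1.17 CPM. Several defining epithelial markers were therefore at or near 0, while of 5 mesenchymal markers VIM was at 2344.5 to 2702 CPM, FN1 at 623 to 1546 CPM, CDH2 at 131 to 195 CPM and COL1A1 at 20.5 to 25.6 CPM, with COL1A2 near 0 at 17 to 26 UMIs per library. The summed markers of blood and immune cells reached at most 10.8 CPM, of which CD68 made up nearly all, those of endothelial cells 0.679 CPM and those of muscle 4.80 CPM.

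The 100 bases before the annotated start of 4 of the genes are given first, since they show an actin gene beside both thymosin genes and the most abundant light chain gene. The sequences are from a set of RefSeq promoter windows (GRCh38.p14), in which 9 of the 10 genes had a window. ACTB had no window in the set used here, so it was not searched for any motif. Capitals mark a CArG box, the element bound by serum response factor (SRF), in ACTG1, and GGGCGG, the core of a GC box, on either strand in the others (CCGCCC when on the opposite strand). The windows are chr17:81512800-81512899 on the minus strand for ACTG1, chr2:84905556-84905655 for TMSB10, chrX:12975010-12975109 for TMSB4X and chr12:56158259-56158358 for MYL6, the last 3 on the plus strand.
ACTG1: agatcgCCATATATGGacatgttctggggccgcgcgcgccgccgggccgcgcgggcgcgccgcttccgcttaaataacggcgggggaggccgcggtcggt
TMSB10: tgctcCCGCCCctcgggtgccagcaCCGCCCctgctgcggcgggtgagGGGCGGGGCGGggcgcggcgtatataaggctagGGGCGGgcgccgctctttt
TMSB4X: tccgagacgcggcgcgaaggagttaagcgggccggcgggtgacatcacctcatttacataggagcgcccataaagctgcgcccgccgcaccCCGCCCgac
MYL6: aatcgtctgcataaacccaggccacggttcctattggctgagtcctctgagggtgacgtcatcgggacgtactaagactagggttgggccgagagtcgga

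Over the 250 bases before the start, a CArG box was found for 1 of 9 genes (ACTG1) and for 1.44% of the 27305 genes with a sequence. GGGCGG was found for 9 of 9 genes, against 46.2% of all, and TATAAA for 0 of 9, against 13% of all. Both were searched as exact strings, so near matches, such as the tatata in the TMSB10 stretch above, were not counted. A gene was counted if any of its windows matched. MYL12A, MYL12B and TAGLN2 had 3 windows each, and the 27305 genes had 35116 windows together. These background genes were not limited to those expressed here. The motifs were searched on both strands, and the CArG box and GGGCGG matches printed above do not overlap each other. TMSB10 carried 5 GGGCGG matches within the 100 bases shown, of which 2 overlap, and MYL6 carried none there.

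The actin genes were among the most abundant genes of every library, and in CPM they lay within 1.2-fold of the control at every dose. ACTB, encoding beta-actin, was at 5482 CPM in the control, 5009 CPM at 10 mGy, 5143 CPM at 100 mGy and 5835 CPM at 1 Gy. ACTG1, encoding gamma-actin, was at 5181, 4696, 4712 and 5053 CPM in the same order. Both were lowest at 10 mGy. For ACTB the ratios were 0.914 (0.912 to 0.916) at 10 mGy, 0.938 (0.936 to 0.940) at 100 mGy and 1.06 (1.06 to 1.07) at 1 Gy. For ACTG1 they were 0.906, 0.910 and 0.975. Under median ratio scaling, which sets the typical gene to no change, the ACTB ratio at 100 mGy was 1.22, so the direction of the actin genes at the low doses depended on the scale. As mean UMIs per barcode, without scaling for depth, the ACTB ratios were 0.634, 0.6002 and 0.759 with rising dose. Those of ACTG1 were 0.629, 0.582 and 0.695, so both genes were over 1.2-fold lower at every dose. Most genes were too, with 7199, 7663 and 8265 of the 8507 genes over 1.2-fold lower as such means. Such means count every barcode, low-UMI ones included, which were 41.4% of barcodes at 10 mGy against 19.6% in the control. The other barcodes also had fewer UMIs, with a median of 21752 in the control and 19927, 15108 and 16426 with rising dose. Of the UMIs of both actin genes, ACTG1 took 48.6% in the control and 48.4%, 47.8% and 46.4% in order of dose. The 2 coding sequences are nearly alike, and how the counting divided reads between them and their processed pseudogenes is not given in the sources used here.

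**Figure D1:**
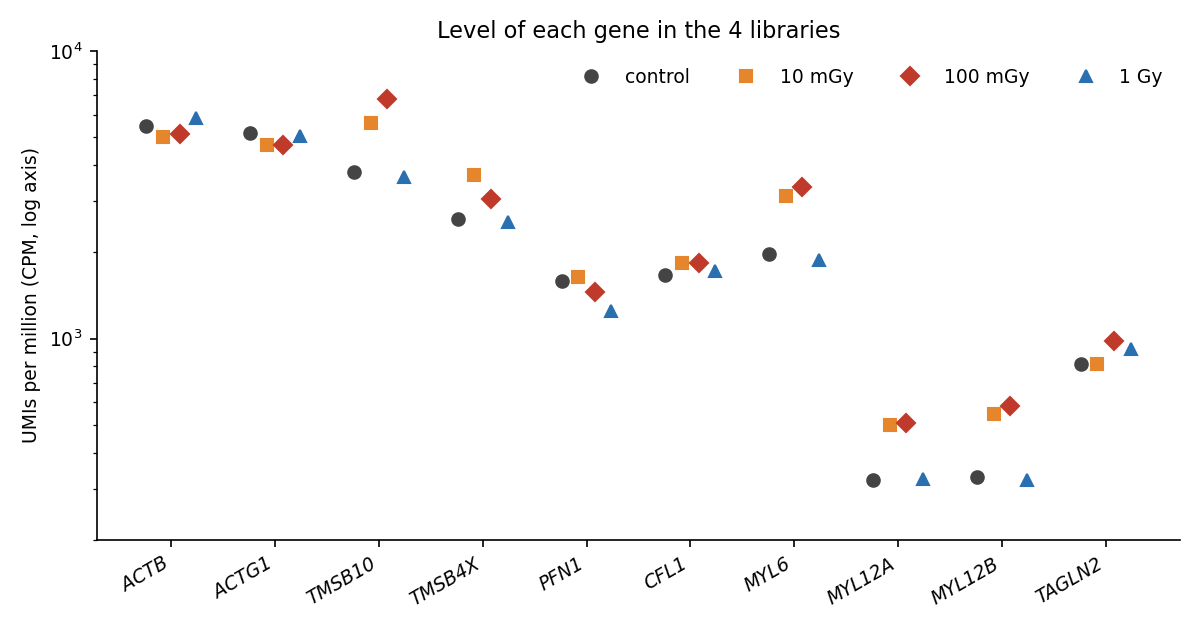
Level of each of the 10 genes in CPM (log axis, not divided by transcript length), with 1 point per library for the control, 10 mGy, 100 mGy and 1 Gy. ACTB and ACTG1 lie close together in all libraries, while TMSB10, MYL6, MYL12A and MYL12B lie higher at 10 mGy and 100 mGy than in the control and at 1 Gy.

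In CPM, the thymosin genes differed more between the control and 10 mGy than the actins did. TMSB10, encoding thymosin beta-10, was at 3804 CPM in the control, 5588 CPM at 10 mGy, 6818.5 CPM at 100 mGy and 3635 CPM at 1 Gy. It was the highest of the 10 genes at both low doses, where ACTB held that place in the control and at 1 Gy. Among all genes it ranked 15 both in the control and at 1 Gy, 6 at 10 mGy and 4 at 100 mGy. Against the control, TMSB10 had a ratio of 1.469 (1.465 to 1.473) at 10 mGy, 1.793 (1.788 to 1.797) at 100 mGy and 0.956 (0.953 to 0.959) at 1 Gy. TMSB4X, encoding thymosin beta-4, was at 2606, 3703, 3043 and 2544 CPM. Unlike TMSB10, it was highest at 10 mGy, with ratios of 1.42 (1.42 to 1.43), 1.17 (1.16 to 1.17) and 0.976 (0.973 to 0.980). As mean UMIs per barcode, the ratios with rising dose were 1.02, 1.15 and 0.681 for TMSB10 and 0.986, 0.747 and 0.696 for TMSB4X. On that scale TMSB4X was thus below the control at both low doses, and at 10 mGy the thymosins were near the control while the actins were below it. All barcodes enter that scale, and the share of low-UMI barcodes was larger at 10 mGy (41.4%) than in the control (19.6%).

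Between 10 mGy and 100 mGy the thymosins differed in opposite directions. TMSB10 was 1.22 times as high at 100 mGy as at 10 mGy (1.2175 to 1.2228), and TMSB4X 0.822 times as high (0.819 to 0.824). TMSB10 was the only one of the 10 genes over 1.2-fold higher in this comparison, and TMSB4X the only one over 1.2-fold lower. The TMSB4X ratio was within 1.2-fold after thinning to 5000 UMIs (0.836), under median ratio scaling (0.870) and without ribosomal protein and mitochondrially encoded genes in the scale (0.840). The TMSB10 ratio was within it as mean UMIs per barcode (1.13), and TAGLN2, at 1.197, passed it under several alternatives. The share of TMSB10 in the UMIs of both thymosins is not altered by any factor applied to a whole library. It was highest at 100 mGy, with 69.1%, and 59.3% in the control, 60.1% at 10 mGy and 58.8% at 1 Gy. In low-UMI barcodes alone this share was 58.3% in the control, then 48.2%, 58.8% and 59.1% with rising dose. With each barcode weighted equally it was 55.0% at 10 mGy and 65.7% at 100 mGy against 59.1% for the control, so at 10 mGy its direction against the control depended on the weight of barcodes.

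The pair of thymosin genes was also set against the pair of actin genes. Thymosin UMIs made up 37.5% (37.49 to 37.59) of the UMIs of these 4 genes in the control, 48.9% (48.9 to 49.0) at 10 mGy, 50.02% (49.97 to 50.06) at 100 mGy and 36.2% (36.2 to 36.3) at 1 Gy. The low-dose libraries lay over 10 percentage points above the control and the 1 Gy library below it. The same was seen within single barcodes. Each barcode was thinned at random to 5000 UMIs so that depth was equal, which left out the 2051 control, 8953 10 mGy, 5679 100 mGy and 3980 1 Gy barcodes that were shallower. The median share per barcode was then 37.9% in the control and 36.4% at 1 Gy, but 49.2% at 10 mGy and 50.5% at 100 mGy. The value that 50% of control barcodes exceeded was exceeded by 94.6% of the 10 mGy, 95.8% of the 100 mGy and 40.8% of the 1 Gy barcodes. The distributions overlapped, and both their ends were higher at the low doses. The 10th and 90th percentiles were 29% and 46.9% in the control, 40% and 58.3% at 10 mGy, 41.0% and 60.3% at 100 mGy, and 27.8% and 45.2% at 1 Gy.

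**Figure D2:**
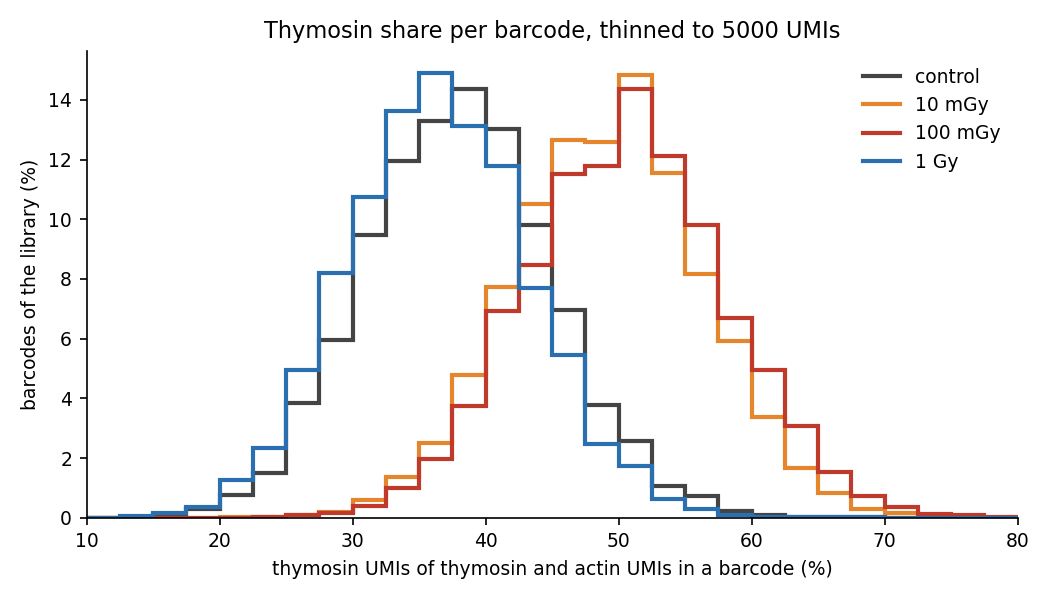
Share of TMSB10 and TMSB4X in the UMIs of TMSB10, TMSB4X, ACTB and ACTG1 per barcode (horizontal axis, in percent) against the percent of barcodes of the library (vertical axis), after thinning to 5000 UMIs. The control and 1 Gy curves peak below 40% and the 10 mGy and 100 mGy curves near 50%.

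The thymosin share differed less with depth within a library than between either low-dose library and the control. Barcodes other than low-UMI ones were cut into 4 groups of equal size by UMI count. From the shallowest to the deepest group the share was 38.8%, 38.4%, 37.5% and 36.7% in the control, and 50.6%, 49.9%, 48.6% and 47.2% at 10 mGy. At 100 mGy it was 52.2%, 51.6%, 49.4% and 48.8%, and at 1 Gy 37.0%, 37.0%, 36.1% and 35.4%. Deeper barcodes had a lower share in each library, and the lowest group value at a low dose (47.2%) was above the highest one in the control (38.8%).

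The 3 myosin light chain genes were higher in CPM at both low doses and near the control at 1 Gy. MYL6, the essential light chain, was at 1974 CPM in the control, 3125 CPM at 10 mGy, 3365 CPM at 100 mGy and 1870.4 CPM at 1 Gy. MYL12A was at 322, 502, 507 and 326 CPM, and MYL12B at 330.05, 547, 584 and 322 CPM. For each of the 3 genes, both low-dose libraries lay above both of the others. The ratios to the control for MYL6 were 1.58 (1.58 to 1.59), 1.70 (1.70 to 1.71) and 0.947 (0.943 to 0.951) at 10 mGy, 100 mGy and 1 Gy. MYL12A had 1.56 (1.54 to 1.57), 1.57 (1.56 to 1.59) and 1.01 (1.00 to 1.02), and MYL12B 1.66 (1.64 to 1.67), 1.77 (1.75 to 1.78) and 0.976 (0.965 to 0.986). As mean UMIs per barcode the low-dose ratios of these 3 genes were all above 1, between 1.01 and 1.15, and under 1.2-fold, and at 1 Gy they were 0.675, 0.720 and 0.695.

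MYL12A and MYL12B encode almost the same protein and their counts were close. How reads were divided between them is not given in the sources used here and was not tested. Their order was not the same in all libraries. MYL12A made up 49.4% (49.1 to 49.7) of their UMIs in the control, 47.9% (47.7 to 48.0) at 10 mGy, 46.5% (46.3 to 46.7) at 100 mGy and 50.3% (50.02 to 50.55) at 1 Gy. At 1 Gy their levels had overlapping counting intervals, the only neighbours in the order of the 10 genes in any library of which this held. Against ACTB, MYL6 took 38.4% of the UMIs of the pair at 10 mGy and 39.6% at 100 mGy, compared with 26.5% in the control and 24.3% at 1 Gy.

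The genes for profilin, cofilin and transgelin-2 differed less in CPM between the control and the low doses than the light chains did. PFN1 was at 1582 CPM in the control, 1639 CPM at 10 mGy, 1456 CPM at 100 mGy and 1243.5 CPM at 1 Gy. It was lowest at 1 Gy, where its ratio was 0.786 (0.782 to 0.790), the only member past 1.2-fold at that dose. CFL1 was at 1663, 1835, 1831 and 1711 CPM, with ratios of 1.10, 1.10 and 1.03, so in CPM it was above the control in every irradiated library and within 1.2-fold. As mean UMIs per barcode it was below the control in all 3, at 0.705 to 0.766, and at the low doses PFN1 had 0.719 and 0.589 and TAGLN2 0.693 and 0.766, farther from 1 than the light chains on that scale. Distance from 1 there includes the difference in depth. Over all genes the median log2 ratio on that scale was -0.83 at 10 mGy and -1.03 at 100 mGy. TAGLN2 was at 817, 817, 977 and 919 CPM. Its ratio was 1.00 (0.993 to 1.01) at 10 mGy, 1.1965 (1.189 to 1.204) at 100 mGy and 1.12 (1.12 to 1.13) at 1 Gy. At 100 mGy the threshold of 1.2 lay within its counting interval. Against ACTB, PFN1 had a share of 22.4% in the control and of 24.7%, 22.1% and 17.6% with rising dose, and CFL1 one of 23.3%, then 26.8%, 26.3% and 22.7%.

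Of the 10 genes, 5 were over 1.2-fold higher at 10 mGy and 0 over 1.2-fold lower, where 15.4% of the 8507 genes were higher and 53% lower. These 5 were TMSB10, TMSB4X, MYL6, MYL12A and MYL12B. At 100 mGy, 4 of the 10 were higher and 0 lower, where 14% of all genes were higher and 58.9% lower. With a floor of 100 CPM, which all 10 genes also passed, 547 of 1779 genes were higher and 660 lower at 10 mGy. At 100 mGy the numbers at that floor were 549 and 693. TMSB4X was also over 1.2-fold higher at 100 mGy when each barcode was weighted equally (1.31), without ribosomal protein and mitochondrially encoded genes in the scale (1.27), and under median ratio scaling (1.52). TAGLN2 passed it in the latter 2 settings (1.30 and 1.56) and in barcodes of 10000 to 20000 UMIs (1.22). At 1 Gy, PFN1 was the 1 gene lower and 0 of the 10 were higher, with 1.28% of all genes higher and 0.846% lower. From 10 mGy to 100 mGy, 1 was higher and 1 lower, against 1.35% and 12.7% of all genes. Over the 10 genes the ratio had a median of 1.26, 1.18 and 0.976 with rising dose, and over all genes one of 0.810, 0.766 and 1.01.

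Because the typical gene was below the control at both low doses, all 10 genes lay above the median of all genes at 10 mGy and at 100 mGy, the actin genes included. On the log2 scale and relative to that median, ACTB stood at 0.17 at 10 mGy and 0.29 at 100 mGy, and ACTG1 at 0.16 and 0.25. TMSB10 stood at 0.86 and 1.23, MYL6 at 0.97 and 1.15, and MYL12B at 1.03 and 1.21. At 1 Gy, 3 of the 10 were above the median of all genes. Together the 10 genes took 2.75% of all UMIs at 10 mGy and 2.84% at 100 mGy, with 2.38% in the control and 2.35% at 1 Gy.

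Over all genes the ratios at the low doses went with transcript length. Among the 10 genes, those past 1.2-fold at 10 mGy were the shortest. Length was the median over coding transcripts in GENCODE 29, available for 8257 of the 8507 genes. The shortest members were TMSB10 with 496 nucleotides (nt), TMSB4X with 697.5 nt, MYL6 with 753 nt, MYL12A with 947 nt and MYL12B with 1137 nt, and these are the 5 genes that were over 1.2-fold higher at 10 mGy. PFN1 (1291 nt), CFL1 (1556 nt), TAGLN2 (1603 nt), ACTB (1812 nt) and ACTG1 (1960 nt) lay within 1.2-fold there. At 100 mGy this split by length did not hold, with TMSB4X at 1.17 and TAGLN2 at 1.1965. Among the 5 shortest the ratio at 10 mGy did not fall with length, with 1.47 for TMSB10 and 1.66 for MYL12B. Over all genes, the median ratio at 10 mGy was 1.40 for the 587 genes under 1000 nt, 1.17 for the 849 genes of 1000 to 1500 nt, 0.972 for the 1077 genes of 1500 to 2000 nt and 0.729 for the 5744 longer ones. At 100 mGy these medians were 1.45, 1.13, 0.930 and 0.684, and at 1 Gy they were 0.985, 0.996, 1.02 and 1.02. Of the genes under 1000 nt, 77.5% were over 1.2-fold higher at 10 mGy and 76.7% at 100 mGy, so that being higher was the rule in the length class of TMSB10, TMSB4X, MYL6 and MYL12A. Beside their class medians, TMSB10, MYL6, MYL12A, MYL12B, CFL1 and TAGLN2 were above at both low doses. MYL12B lay at 1.66 and 1.77 against 1.17 and 1.13. TMSB4X was at 1.42 against 1.40 at 10 mGy and at 1.17 against 1.45 at 100 mGy. PFN1 and ACTG1 were below at both low doses, and ACTB was below at 10 mGy only. Ribosomal protein genes, which are mostly short, also took more of the UMIs at the low doses, 19.9% and 21.7%, than in the control with 13.9% and at 1 Gy with 14.0%. Mitochondrially encoded genes took less there, 4.55% and 4.402%, against 5.91% for the control and 5.78% at 1 Gy. The summed mesenchymal markers were likewise lower at the low doses, at 3309 and 3156 CPM, than in the control with 4456 CPM and at 1 Gy with 4031 CPM. Among them FN1, with a transcript of 7925 nt, had ratios of 0.403 and 0.414. VIM, the most abundant of them, had 0.938 and 0.868. The part of these differences in the ratios was not tested. What gave the relation with length was not tested.

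**Figure D3:**
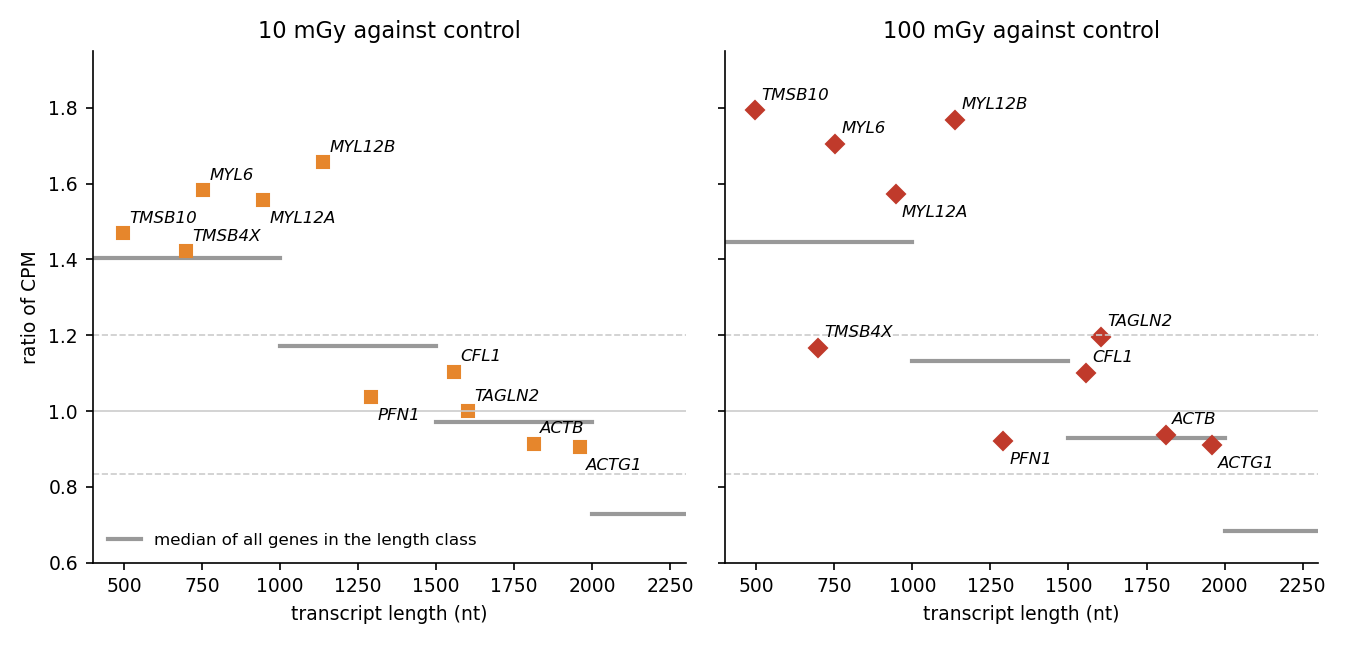
Ratio of CPM to the control at 10 mGy and 100 mGy (vertical axes) against median transcript length in nucleotides (horizontal axes), with 1 point per gene; grey bars are the median ratio of all genes in 4 length classes, and dashed lines mark 1.2-fold in either direction. The 5 shortest of the 10 genes lie above 1.4 at 10 mGy, and at 100 mGy TMSB4X lies below the median of its class, at 1.17.

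The other genes of the actin system were taken from lists chosen with earlier results of these data known. Their counts cover the genes that reached the floor and stand beside 15.4% of all genes higher and 53% lower at 10 mGy, and 14% and 58.9% at 100 mGy. Among genes of at least 2000 nt, 69.7% were lower at 10 mGy and 76.8% at 100 mGy. Of 5 other actin genes, among them those of muscle, 0 reached the floor, and the highest, ACTC1, was at 2.97 to 4.05 CPM. Of 14 other genes for small proteins that bind monomers or filaments, 12 of which had transcripts of at least 1500 nt, 1 was over 1.2-fold higher and 4 lower at 10 mGy, with a median ratio of 0.881, and 2 were higher and 6 lower at 100 mGy. The 2 were CAPG and TAGLN, the only ones with transcripts under 1500 nt, and CAPG alone was higher at 10 mGy. CAPG is a filament-capping protein of the gelsolin family and had 1.65 at 10 mGy and 1.48 at 100 mGy. DSTN, a relative of cofilin, was at 986, 1026, 893 and 1051 CPM, TAGLN was at 1088, 1275, 1368 and 1004 CPM, and TWF1 (twinfilin-1) had the lowest ratio of the list, 0.701 at 10 mGy.

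Proteins that nucleate branches or stabilise filaments were described in the same way. Of 9 genes of the ARP2/3 complex, which starts new filament branches, 1 was higher and 3 lower at 10 mGy, and 1 higher and 2 lower at 100 mGy. ARPC3 was the higher one, with 201, 325, 373 and 179 CPM and ratios of 1.61 at 10 mGy and 1.85 at 100 mGy, while ACTR2 had 0.709 and 0.705. The most abundant subunits, ARPC2 and ARPC5, had 0.824 and 0.961 at 10 mGy. Of 7 genes for tropomyosins, calponins and caldesmon, 0 were higher and 4 lower at both low doses, near the share of lower genes among all genes at each dose. TPM1 was at 0.946 and 0.906 and TPM3 at 0.809 and 0.793, CALD1 had the highest ratio at 10 mGy with 1.10 and was at 1.08 at 100 mGy, and CNN3 the lowest at 10 mGy with 0.674.

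The other myosin II genes were mostly long. Of 10 other genes for myosin II chains and their control, 1 was higher and 7 lower at 10 mGy and again at 100 mGy. The 7 lower genes were at both doses the 7 of the list with transcripts of at least 2000 nt. MYH9, the heavy chain that pairs with MYL6 and MYL12 proteins, was at 1813 CPM in the control, 793 CPM at 10 mGy, 754 CPM at 100 mGy and 1826 CPM at 1 Gy, with a transcript of 7554 nt. Its ratios of 0.437 and 0.416 at the low doses lay on the other side of 1 from those of the light chains, whereas at 1 Gy it had 1.01. MYL6B was the higher one, with 1.40 and 1.39, and MYL9, a further regulatory light chain, had 1.14 and 1.04. Of 22 large proteins that crosslink, cap or anchor filaments, 0 were higher and 18 lower at both low doses, and all 22 had transcripts of at least 2000 nt. FLNA (filamin A) was at 1178, 683, 678 and 1239 CPM, ACTN1 (an alpha-actinin) at 692, 565, 516 and 698 CPM and SPTBN1 (a spectrin) at 450.4, 185, 184 and 437 CPM, and GSN (gelsolin) had the highest ratio, 1.12 at 10 mGy.

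Actin genes are known targets of SRF, whose cofactors sense free actin monomers. Of 12 genes for SRF, its cofactors and other targets, 1 was higher and 7 lower at 10 mGy, and 0 were higher and 10 lower at 100 mGy. Of the 12, 10 had transcripts of at least 2000 nt. CCN1 was at 757, 573, 520 and 787 CPM and THBS1 at 766, 303, 294 and 705 CPM. ANKRD1 had 1.26 at 10 mGy and 0.767 at 100 mGy. At 1 Gy, 1 gene of this list, SRF itself, was higher, where 1.28% of all genes were. It was at 34.0 CPM against 28.2 CPM in the control, and its ratio of 1.207 lay close to the threshold. Of 12 genes for tubulins, intermediate filaments and stathmin (STMN1, which binds tubulin), 5 were higher and 0 lower at 10 mGy and 4 and 0 at 100 mGy. Of these 12, 10 had transcripts of at least 1500 nt, 3 of them of at least 2000 nt. Among all genes of 1500 to 2000 nt, 17.4% were higher and 23.7% lower at 10 mGy. STMN1 was 1 of the 5, with 1.56 at 10 mGy and 1.44 at 100 mGy. TUBA1A, with a transcript of 1887 nt, had the highest ratio at 10 mGy with 1.74. TUBB and VIM, the most abundant, had 0.964 and 0.938, and KRT8 the lowest with 0.932. At 1 Gy, 0 genes of the lists other than that of SRF passed 1.2-fold.

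**Figure D4:**
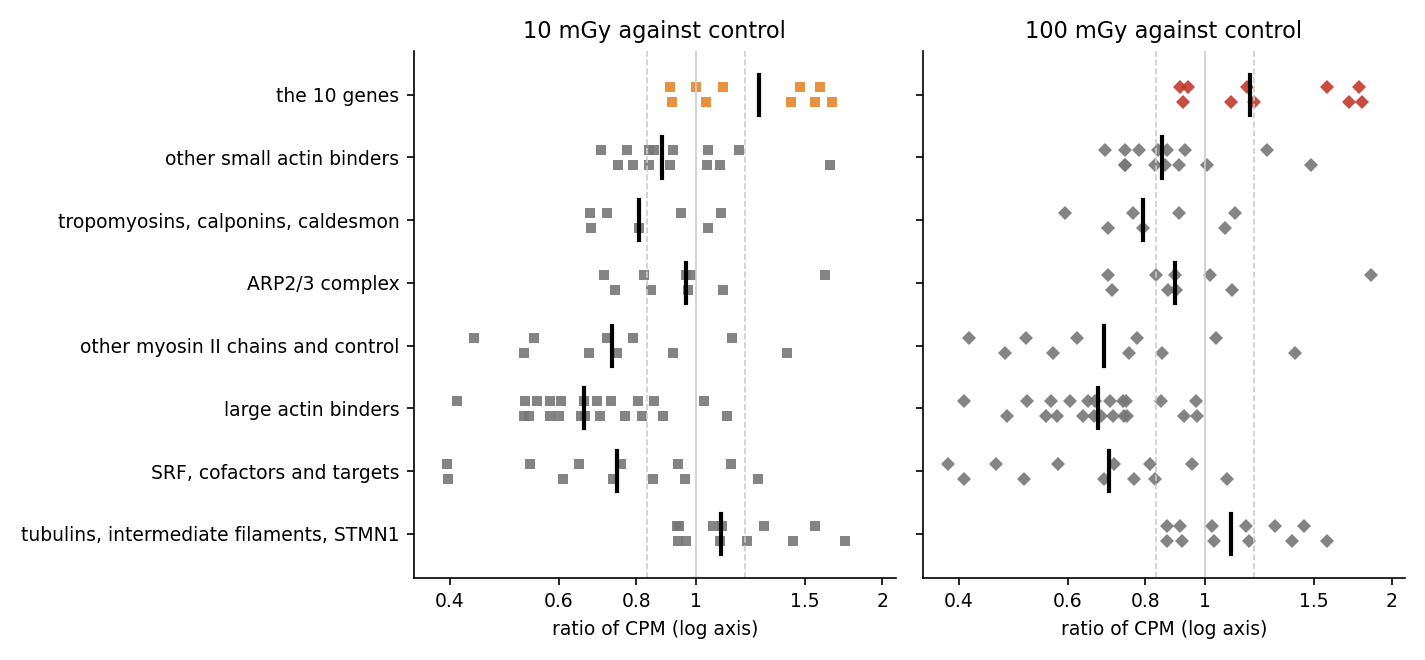
Ratio of CPM to the control (log axes) at 10 mGy and 100 mGy for the 10 genes and for 7 lists of other cytoskeletal genes, with 1 point per gene at the floor, black bars for list medians and dashed lines at 1.2-fold in either direction. The median of the 10 genes is above 1 in both panels, and that of the large actin binders is 0.660 and 0.671.

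Low-UMI barcodes carried these genes in other proportions than the rest of their library. TMSB4X was at 5103 CPM in low-UMI barcodes and 3623 CPM in the others at 10 mGy, and at 4011 and 3018 CPM at 100 mGy. In the control and at 1 Gy, TMSB4X was close between them, at 2423 and 2610 CPM and at 2523 and 2545 CPM. MYL12A and MYL12B were higher in low-UMI barcodes of all 4 libraries, by 1.40 to 1.59 times for MYL12A and 1.36 to 2.01 times for MYL12B. TAGLN2, CFL1, ACTB and ACTG1 were lower there in all 4 libraries, with TAGLN2 the lowest at 0.699 to 0.768 times. Whether these barcodes held damaged cells, free RNA or small cells was not tested. Without them, all 40 ratios of the 10 genes stayed on their side of 1.2-fold, among them TMSB4X at 10 mGy.

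**Figure D5:**
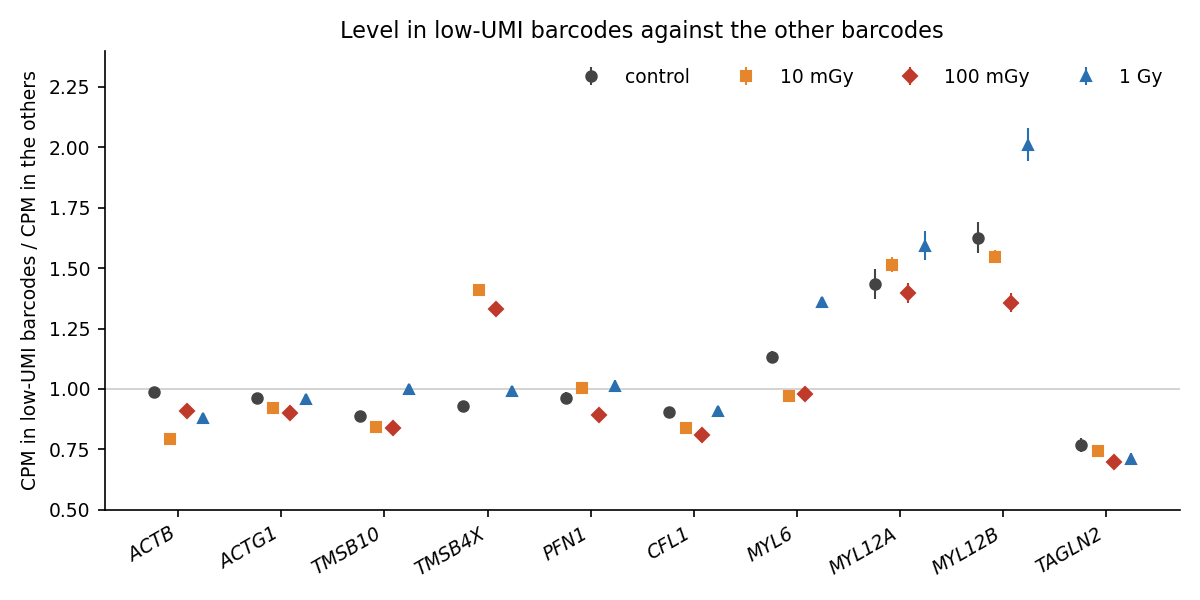
CPM in low-UMI barcodes divided by CPM in the other barcodes of the same library, for each of the 10 genes and each library, with exact 95% counting intervals as bars. TMSB4X lies above 1.3 at 10 mGy and 100 mGy only, and MYL12A and MYL12B lie above 1.3 in all 4 libraries.

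Barcodes with the highest share of mitotic gene UMIs differed slightly from the others in these genes. Within each library the top 10% by 12 mitotic genes, 894 to 1448 barcodes, were compared with the rest, low-UMI barcodes left out. ACTG1 was 1.05 to 1.07 times as high in them in all 4 libraries, TMSB4X 0.883 to 0.941 times and TMSB10 0.923 to 0.960 times. The top barcodes also had more UMIs, with a median of 25946 against 21479 in the control. With every barcode thinned to 5000 UMIs, ACTG1 at 10 mGy had 1.05 and TMSB4X 0.880. The summed mitotic genes were at 2818, 2263, 2572 and 2963 CPM in the 4 libraries.

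The study looked for genes whose dispersion, the standard deviation over the mean across barcodes, was lower at 100 mGy than at 10 mGy. With UMIs scaled to 10000 per barcode, 0 of the 10 genes met this, against 1.41% of the 8507 genes. At 10 mGy and 100 mGy the dispersion was 28.5% and 31.0% for TMSB10, 30.8% and 32.8% for ACTB and 79.9% and 93.4% for MYL12A. Without low-UMI barcodes these values were lower, with 20.65% and 23.4% for TMSB10, 19.8% and 22.1% for ACTB and 39.8% and 45.6% for MYL12A. Unscaled, all 10 met it, as did 3736 of the 8507 genes. Thinned to 5000 UMIs, 2 did, MYL12B (64.8% and 62.7%) and TAGLN2 (53.9% and 49.2%), a smaller share than the 2638 of 8507 genes. After thinning, the dispersion was 1.28 to 1.57 times the value that counting alone gives for TMSB10, and 1.46 to 1.56 times for ACTG1 over the libraries. For MYL12A and MYL12B it was 1.04 to 1.08 times, so that most of their spread was at the level of counting. Across thinned barcodes, ACTB and ACTG1 had the highest correlation of any pair of the 10 genes, with Pearson's r of 0.274 over 9060 control barcodes, 0.236 over 12561 at 10 mGy, 0.280 over 14271 at 100 mGy and 0.271 over 11530 at 1 Gy. These barcodes share a library and a fixed total, and reads may be shared between the 2 genes.

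Genes with the pattern most like TMSB10 or ACTB were found among 1769 other genes of at least 100 CPM, by the Euclidean distance between the 3 log2 ratios to the control. The nearest to TMSB10 were RPS7 at a distance of 0.0186, then SEC61G, RPL32, MRPS18C and TXNDC17, the last at 0.0669. RPS7, a ribosomal protein gene, had ratios of 1.49, 1.80 and 0.960 beside 1.47, 1.79 and 0.956 for TMSB10. The nearest to ACTB were DDA1 at 0.0190, then PGK1, HP1BP3, VMA21 and HSPA8, the last at 0.0425. PGK1, the glycolytic phosphoglycerate kinase, had ratios of 0.921, 0.934 and 1.04. The ratios of these neighbours lay within 0.1 of those of the gene they resemble at every dose.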

How the data were processed

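The 4 single-cell libraries of BEAS-2B cells were grouped by dose from the sample labels. The deposited values are whole UMI counts of each gene in each barcode, not normalized, which the authors made with the Chromium 3′ v3 kit and Cell Ranger 7.0.1 per the file headers. The submitters' processing notes name GRCh37 and STAR. Whether intronic reads were counted is not given in the sources used here.

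UMIs were summed over all deposited barcodes and given as CPM. Doublets were kept. Intervals are exact Poisson, binomial or conditional binomial intervals, narrow at 211752280 to 285806026 UMIs per library, while 1 library per dose limits the precision. Genes of at least 10 CPM were compared at 1.2-fold, the fold of the study. Other barcodes, scalings, floors, thinning and folds were alternatives. The members and lists were chosen with earlier results of these data known. All members were named, of each list the 2 most abundant genes and those with the highest and lowest ratio at 10 mGy, and the 5 genes nearest TMSB10 and likewise ACTB. SRF, ACTC1, STMN1 and single markers were named after their values were seen. One gene that the rule names, and a comparison of barcodes that used it, are not reported here. GENCODE 29 and RefSeq (GRCh38.p14) gave lengths and sequences, with no coordinates taken across builds. Poisson counts were simulated for 10 mGy against control with 8507 genes, 200 of them changed, and 95.2% of intervals held the true ratio. These counts held counting error only, so they checked the calculation and not variation between barcodes or libraries. Analyses ran in Python 3.11.15 with numpy 2.4.6, pandas 2.3.3, scipy 1.17.1 and matplotlib 3.10.9.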

Additional observations from a re-analysis of the deposited data

How the results depend on the processing

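No paired analysis was possible because each dose had 1 library. Of 40 ratios of the 10 genes, 0 changed their side of 1.2-fold without low-UMI barcodes or after removing barcodes under 200 genes or over 20% mitochondrially encoded UMIs. Thinning and leaving out very deep barcodes changed 1 each, the 10000 to 20000 UMI window and scaled means 2 each, scaling without ribosomal protein and mitochondrial genes 4, median ratio scaling 10 and unscaled means 31. Over all genes, log2 ratios had a median of -0.30, -0.38 and 0.02 in CPM at 10 mGy, 100 mGy and 1 Gy, near 0 under median ratio scaling, and -0.83, -1.03 and -0.47 unscaled. The causes of the changes below were not tested, beyond what each setting removes by construction.

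Higher and lower counts are given in pairs. For the 10 genes, median ratio scaling gave 8 higher at 10 mGy, 9 higher at 100 mGy, and 2 and 0 from 10 mGy to 100 mGy. Of the 8507 genes it gave 2600 higher, 2707 higher, and 399 and 540 in the same comparisons. Mean UMIs per barcode gave 0 and 5, 0 and 6, and 10 lower at 1 Gy, with 0 and 2 from 10 mGy to 100 mGy, and a reversed TMSB4X ratio of 0.986 at 10 mGy. Low-UMI barcodes were counted in these means. Of the 8507 genes, 7199, 7663 and 8265 were lower by these means at 10 mGy, 100 mGy and 1 Gy. From 10 mGy to 100 mGy, 2684 were lower. At 1.5-fold, 3 were higher at 10 mGy, 0 lower at 1 Gy, and 0 and 0 differed from 10 mGy to 100 mGy. In that last comparison, 2 were higher (TMSB10 and TAGLN2) in the UMI window, without very deep barcodes, with scaled means and without ribosomal protein and mitochondrial genes in the scale, and 0 were lower after thinning and in the last of these settings.

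For all genes, median ratio scaling gave 2600 and 2319 at 10 mGy, 2707 and 2468 at 100 mGy, 56 and 135 at 1 Gy, and 399 and 540 from 10 mGy to 100 mGy. Unscaled means gave 138 and 7199, 87 and 7663, 0 and 8265, and 29 and 2684. At 1.5-fold the counts were 420 and 2193, 429 and 2888, 1 and 2, and 8 and 73. A floor of 100 CPM left 1779 genes in place of 8507. It gave 547 and 660, 549 and 693, 20 and 18, and 38 and 110. A floor of 1 CPM left 12879 genes. It gave 6872 lower at 10 mGy and 7837 lower at 100 mGy. At 1 Gy it gave 404 and 183, and between the low doses 310 and 2402. With 1 UMI in every library as the only filter, 23201 genes were left. The counts were then 3933 and 13452, 3178 and 14670, 3631 and 2659, and 2525 and 6813. At 1 Gy, the UMI window gave 249 and 148, thinning 170 higher and scaled means 111 lower. Between the low doses, 194 were higher in the window and 182 without ribosomal protein and mitochondrial genes in the scale.

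The thymosin share was 38.7%, 50.2%, 50.6% and 36.7% in the UMI window for the control, 10 mGy, 100 mGy and 1 Gy, and 37.9%, 49.1%, 50.5% and 36.3% after thinning. Scaled means gave 51.2%, 51.1% and 36.9% at the 3 doses. Without low-UMI barcodes it was 48.6% at 10 mGy and 49.96% at 100 mGy, and without very deep barcodes 49.05% at 10 mGy. Dispersion was lower at 100 mGy than at 10 mGy for 3736 genes and all 10 members unscaled, and for 2638 and 2 after thinning. In the UMI window it was lower for 912 and 1. It was lower for 28 genes without low-UMI barcodes, 611 of 12879 at a floor of 1 CPM and 19 of 1779 at 100 CPM.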
